A study of Rattus norvegicus with 10 samples.

Results

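The genes described here are the leukocyte adhesion molecules Icam1, Vcam1, Sele, Selp, Itgb2 and Itgal, together with Ptprc, which encodes CD45. Every probe whose accession belongs to 1 of these 7 genes was followed, 9 probes in all, out of 13837 genes named on the array. Circulating leukocytes leave the blood in steps. Selectins on activated endothelium catch and roll the cells, chemokine signals then switch leukocyte integrins into their binding state, and the integrins hold on to immunoglobulin-type ligands such as ICAM-1 and VCAM-1. In the liver much of this traffic runs through the sinusoids, where selectins are needed less than in other vessels, and Kupffer cells and other resident leukocytes express CD45 and beta-2 integrins at all times.

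Whole-liver RNA of 10 male Sprague Dawley rats (age not given in the sources used here) was labelled with Cy3, and each rat had 1 Agilent Whole Rat Genome array of its own. Sulfur mustard (SM) alkylates DNA and blisters skin, and MSTF is a mixture of salvianolic acids of Salvia miltiorrhiza and total flavonoids of Anemarrhena asphodeloides. The 3 control rats received the solvent, propylene glycol, under the skin. The 4 SM rats received SM at 3.5 mg/kg by the same route. The 3 SM + MSTF rats received the same SM dose and, 1 h later, MSTF at 120 mg/kg into the stomach. All livers were taken 24 h after SM. No group received MSTF alone, so MSTF was seen only on top of SM.

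Values are log2 signals after quantile normalization, which gives all arrays the same distribution, and a difference of 1 is a doubling. Each array held 41012 probes, no spot was saturated, and between 51.9% and 61.4% of probes on an array were well above background by the mark of the scanner software. The 8 hepatocyte markers were well above background on all 10 arrays. A probe entered the test if 1 of the groups or more had it well above background throughout, and 22991 probes did. A probe was called changed at a Benjamini-Hochberg adjusted p under 0.05, taken over all these probes, with a fold change of at least 1.5. All 4 SM arrays and no other array lay on 1 slide, so SM and that slide cannot be told apart. Slide 1 held the 3 control arrays with SM + MSTF replicate 3, and the other two SM + MSTF arrays had a slide of their own.

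The endothelial ligands Icam1 and Vcam1 are textbook targets of NF-kB, and the promoter stretches are shown because the inducers of that pathway are set beside these genes further on. RefSeq promoter sequences of assembly GRCr8 were at hand for 4 of the 7 genes, Icam1, Vcam1, Sele and Ptprc. A kappaB-like pattern, GGNNNTTCC or its reverse complement GGAANNNCC on the strand shown, was searched from 250 bases before to 50 bases after the start. Of 33469 promoters of this length, 18.3% held at least 1 match and 2.1% held 2 or more. Icam1 and Vcam1 each held 2, and no match lay in the windows of Sele and Ptprc. The Sele stretch after the start opens with the letters of a start codon, so that window may not hold its promoter. The lack of a match there says nothing about Sele sites outside the window. The Icam1 stretch is chr8:27829595-27829844 on the plus strand and the Vcam1 stretch is chr2:206742784-206743033 on the minus strand, both 5′ to 3′ over the 250 bases before the start, with matches in capitals.
Icam1: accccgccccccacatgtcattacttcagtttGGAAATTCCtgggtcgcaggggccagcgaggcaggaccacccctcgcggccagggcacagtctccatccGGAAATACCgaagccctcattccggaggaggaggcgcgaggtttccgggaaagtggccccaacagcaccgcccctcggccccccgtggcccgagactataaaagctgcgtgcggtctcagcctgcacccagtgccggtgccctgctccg
Vcam1: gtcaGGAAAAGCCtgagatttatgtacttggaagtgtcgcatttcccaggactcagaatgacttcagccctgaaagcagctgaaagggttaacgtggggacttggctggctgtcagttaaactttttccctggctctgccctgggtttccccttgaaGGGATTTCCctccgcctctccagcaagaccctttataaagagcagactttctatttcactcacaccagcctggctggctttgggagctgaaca
The Icam1 matches begin at positions -218 and -149 and the Vcam1 matches at -246 and -93, counted from the start. The first Icam1 match fits the pattern on either strand. These are matches of letters, and binding at them was not measured here.

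None of the 7 member probes that could be tested, on 5 genes, was called changed in any of the 3 comparisons. Among all probes tested the share called was 2.41% between SM and control, 0.00% between SM + MSTF and control, and 1.26% between SM + MSTF and SM. Of these probes, 6 on 4 genes were well above background on all 10 arrays. The seventh, that of Itgal, entered the test only through the group where it was highest, so it is left out of the counts that follow in this paragraph. At an unadjusted p under 0.05 by the same limma fit, 2 of the 6 probes passed between SM and control (Itgb2 and 1 Ptprc probe), 0 between SM + MSTF and control, and 1 between SM + MSTF and SM (the same Ptprc probe), where 16.4%, 9.54% and 15.9% of all probes did. The fitted difference between SM and control was negative for 6 of 6 probes, against 44.1% of all probes, with a median of -0.33 on the log2 scale against 0.03 over all probes. Between SM + MSTF and control 4 of 6 were negative, against 49.1% of all probes, with a median of -0.03 against 0.00. Between SM + MSTF and SM 6 of 6 were positive, against 46.4% of all probes, with a median of 0.32 against -0.02 over all probes. In each comparison 0 of the 6 probes had arrays that did not overlap, where 18.0%, 15.4% and 14.7% of all probes did not, in the same order. The 3 comparisons share arrays, so they are not separate lines of evidence. The SM mean was the lowest of the 3 group means for 6 of 6 probes and for 30.8% of all probes. Of the 6 probes 3 measure the same gene, Ptprc, and 1 of those had been picked by the study on these same arrays. These counts of direction are therefore no independent evidence.

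A single rat stood apart within the SM group. SM replicate 4 had the highest signal of the 4 SM arrays for each of the 6 probes well above background on all arrays, against 24.1% of all probes. The same held for the values of Itgal. Averaged over the 7 tested probes, Itgal included, each centred on its mean over the 10 arrays, SM replicates 1, 2, 3 and 4 lay at -0.42, -0.63, -0.24 and 0.29 on the log2 scale. The control arrays lay at -0.07, 0.28 and 0.22, and the SM + MSTF arrays at -0.01, 0.09 and 0.48. On these averages SM replicates 1 to 3 were below every control and every SM + MSTF rat, and SM replicate 4 was level with the highest control. Itgal, which entered the test only through SM + MSTF, widens these gaps, and 3 of the 7 probes measure Ptprc. The averages are therefore a description only, and the order did not hold for each probe. For Icam1 SM replicate 1 (10.84) was above control replicate 1 (10.80). Without SM replicate 4, the 6 probes were still lower in SM than in control, 0 were called, and the adjusted p of limma closest to the threshold was 0.0970, for the Ptprc probe A_44_P236144.

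**Figure D1:**
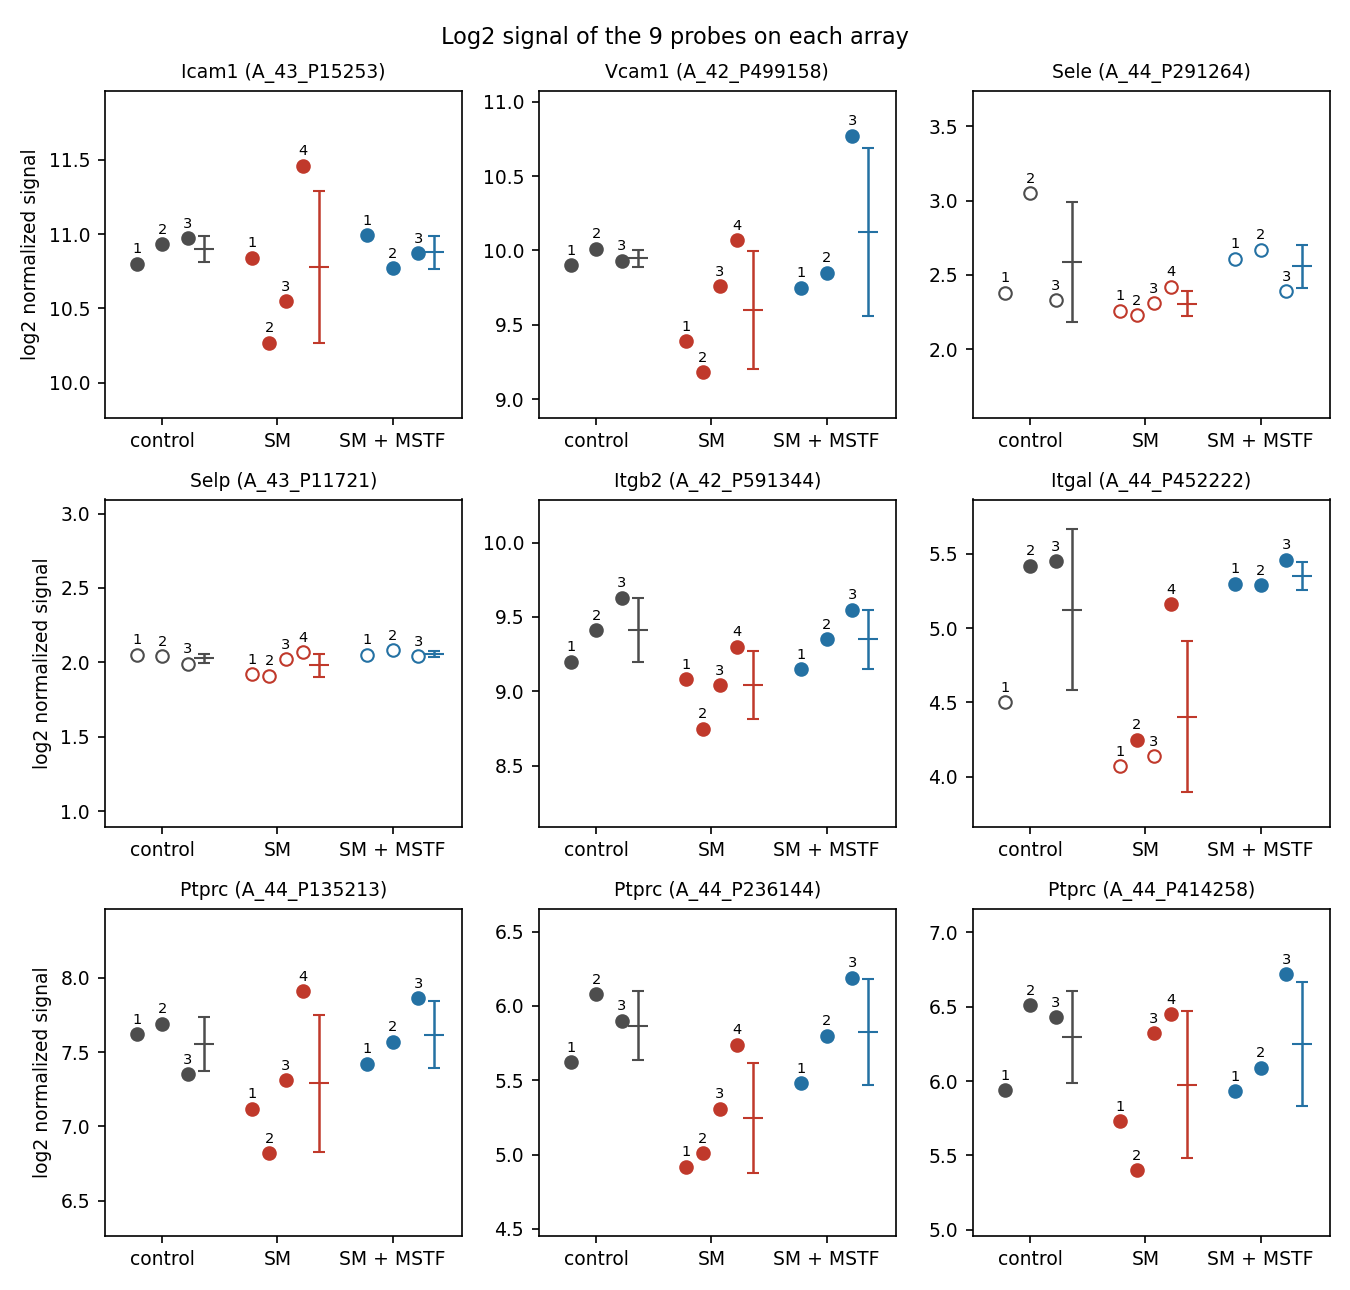
Log2 normalized signal (vertical axis, a span of the same height in each panel) of the 9 probes on each array, with the replicate number above each point and the group mean ± SD beside the points. Filled points are well above background and open points are not. SM replicate 4 is the highest SM array in each of the 7 panels other than those of Sele and Selp, whose points are all open.

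Sele encodes E-selectin, made by activated endothelium, and Selp encodes P-selectin, stored in platelets and endothelial cells. Neither selectin probe reached the mark of well above background, on any of the 10 arrays. The Sele signal was 2.38, 3.05 and 2.33 in control, 2.26, 2.23, 2.31 and 2.42 in SM, and 2.61, 2.67 and 2.39 in SM + MSTF, as log2. The Selp signal was 2.05, 2.04 and 1.99 in control, 1.92, 1.91, 2.02 and 2.07 in SM, and 2.05, 2.08 and 2.04 in SM + MSTF. The dimmest probe well above background on each array lay between 3.77 and 4.82, above every one of these values. Neither probe was tested, and no fold change is given.

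Icam1, the endothelial and leukocyte ligand of the beta-2 integrins, was measured by 1 probe printed in 10 spots on each array. Its log2 signal was 10.80, 10.93 and 10.97 in control, 10.84, 10.27, 10.55 and 11.46 in SM, and 10.99, 10.77 and 10.87 in SM + MSTF. The SM rats spanned both sides of the other groups, with SM replicate 4 the highest and SM replicate 2 the lowest of all 10 arrays. The group means were 10.90 ± 0.09 (SD, n = 3), 10.78 ± 0.51 (SD, n = 4) and 10.88 ± 0.11 (SD, n = 3). SM minus control was -0.12 on the log2 scale (SE 0.23, 95% interval -0.64 to 0.41, limma adjusted p = 0.851), so a change of 1.5-fold downwards lay inside the interval and one of 1.5-fold upwards outside it. Leaving out SM replicate 2 turned this value to 0.05, and leaving out SM replicate 4 moved it to -0.35.

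Vcam1, the ligand of the alpha-4 integrins on cytokine-activated endothelium, gave a log2 signal of 9.90, 10.01 and 9.93 in control. It was 9.39, 9.18, 9.76 and 10.07 in SM and 9.75, 9.85 and 10.77 in SM + MSTF. The control rats lay close together, while 1 rat in each treated group, SM replicate 4 and SM + MSTF replicate 3, was above all of them. The means were 9.95 ± 0.06 (SD, n = 3), 9.60 ± 0.40 (SD, n = 4) and 10.12 ± 0.56 (SD, n = 3). The SM rats differed from control by -0.35 (SE 0.27, interval -0.95 to 0.26, adjusted p = 0.579) and SM + MSTF minus SM was 0.52 (SE 0.27, interval -0.08 to 1.13, adjusted p = 0.364). The first value was -0.20 without SM replicate 2, and the second was 0.20 without SM + MSTF replicate 3.

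On the leukocyte side, Itgb2 encodes CD18, the beta chain that all beta-2 integrins share. Its log2 signal was 9.20, 9.41 and 9.63 in control, 9.08, 8.75, 9.04 and 9.30 in SM, and 9.15, 9.35 and 9.55 in SM + MSTF. SM replicates 1 to 3 lay below every control, and SM replicate 4 lay among the controls. The means were 9.41 ± 0.22 (SD, n = 3), 9.04 ± 0.23 (SD, n = 4) and 9.35 ± 0.20 (SD, n = 3). SM minus control was -0.37 (SE 0.16, interval -0.72 to -0.01, unadjusted p = 0.0430 and adjusted p = 0.283 by limma), a ratio of 0.774. SM + MSTF minus SM was 0.31 (SE 0.16, interval -0.05 to 0.66, adjusted p = 0.363).

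Itgal encodes CD11a, which pairs with CD18 to form LFA-1, the main lymphocyte receptor for ICAM-1. Its probe was dim, and it entered the test only through the SM + MSTF group, where it was well above background on all 3 arrays, against 2 of 3 control and 2 of 4 SM arrays. The log2 signal was 4.50, 5.42 and 5.45 in control, 4.07, 4.25, 4.14 and 5.16 in SM, and 5.30, 5.29 and 5.46 in SM + MSTF. Every SM array lay below every SM + MSTF array, and SM replicate 4 lay close to the SM + MSTF arrays. Of all probes tested 14.7% had no overlap between these groups. The means were 5.12 ± 0.54 (SD, n = 3), 4.41 ± 0.51 (SD, n = 4) and 5.35 ± 0.10 (SD, n = 3). Because of the way the probe passed the filter, and because SM replicates 1 and 3 were not well above background, the gap to SM + MSTF is a description with no test. The means differed by 0.95 between SM + MSTF and SM and by -0.72 between SM and control, and with normexp background correction, which adds an offset of 50 to the signal, by 0.22 and -0.21.

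Ptprc encodes CD45, the receptor tyrosine phosphatase carried by all nucleated blood cells, which sets the threshold of antigen receptor signalling through Src family kinases. The study had picked Ptprc on these same arrays as a cell adhesion gene, by the probe A_44_P236144, so the values of that probe are no independent evidence of a direction. It gave a log2 signal of 5.62, 6.08 and 5.90 in control, 4.92, 5.01, 5.31 and 5.74 in SM, and 5.48, 5.80 and 6.19 in SM + MSTF. SM replicates 1 to 3 lay below every other array, and SM replicate 4 lay among the controls. The means were 5.87 ± 0.23 (SD, n = 3), 5.25 ± 0.37 (SD, n = 4) and 5.82 ± 0.36 (SD, n = 3). SM minus control was -0.62 (SE 0.23, interval -1.13 to -0.11, unadjusted p = 0.0227 and adjusted p = 0.210 by limma), a ratio of 0.651. SM + MSTF minus SM was 0.58 (SE 0.23, interval 0.07 to 1.09, unadjusted p = 0.0307 and adjusted p = 0.267). With normexp the values were -0.22 and 0.23.

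The second probe of the same Ptprc transcript, A_44_P414258, gave 5.94, 6.51 and 6.43 in control, 5.73, 5.40, 6.32 and 6.45 in SM, and 5.93, 6.09 and 6.72 in SM + MSTF. Here SM replicate 3 as well as SM replicate 4 lay among the controls. SM minus control was -0.32 (SE 0.29, interval -0.96 to 0.32, adjusted p = 0.636), and it was -0.10 with normexp, -0.13 without SM replicate 2, -0.21 without control replicate 2 and -0.50 without control replicate 1. The probe of another Ptprc transcript, A_44_P135213, gave 7.62, 7.69 and 7.35 in control, 7.12, 6.82, 7.31 and 7.91 in SM, and 7.42, 7.57 and 7.86 in SM + MSTF. SM replicate 4 was the highest of all 10 arrays by that probe. The difference between SM and control was -0.26 (SE 0.23, interval -0.78 to 0.26, adjusted p = 0.630), and it was -0.17 with normexp, -0.10 without SM replicate 2 and -0.47 without SM replicate 4. The 3 probes thus had the same sign against control, and SM + MSTF minus SM was 0.27 and 0.33 for the second and the third, with adjusted p values of 0.654 and 0.492. Leaving out 1 array at a time moved these to between 0.04 (without SM + MSTF replicate 3) and 0.43 (without SM replicate 4 or SM + MSTF replicate 1) for the second, and to between 0.17 (without SM replicate 2) and 0.54 (without SM replicate 4) for the third. With normexp they were 0.08 and 0.17. Once each probe was centred, any pair of them differed over the 10 arrays by a root mean square of 0.22 to 0.23, and on single arrays by -0.47 to 0.36.

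**Figure D2:**
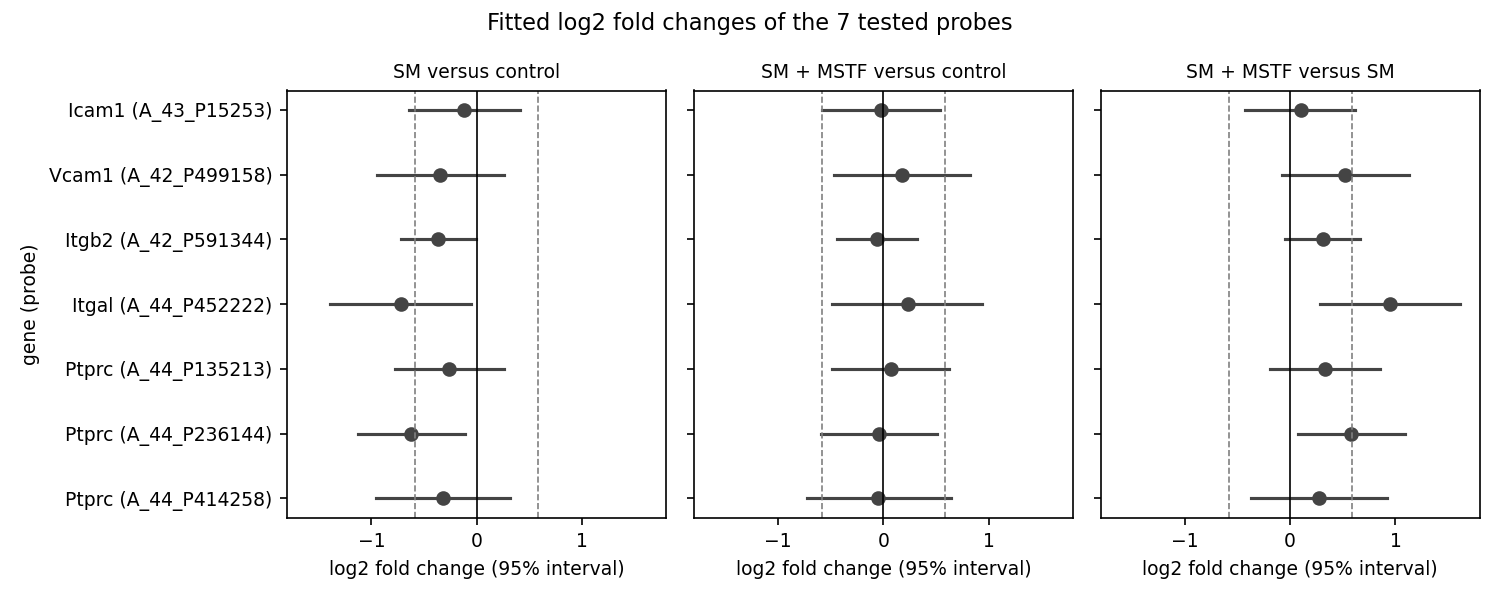
Fitted log2 fold change (horizontal axis) of the 7 tested probes in the 3 comparisons, with 95% intervals of the limma fit as lines and the 1.5-fold limits as dashed lines. The 6 points of the probes well above background on all arrays lie left of 0 in the SM panel and right of 0 where SM + MSTF is set against SM, and no probe passed the adjusted threshold in any panel. Itgal is drawn for its value, since it passed the filter only through SM + MSTF.

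The rats given MSTF after SM were close to the controls on average. The fitted values of SM + MSTF minus control for the 6 probes well above background on all arrays ran from -0.06 for Itgb2 to 0.18 for Vcam1, with adjusted p values of 0.868 to 0.985 by limma, and the means of Itgal differed by 0.23. The intervals ran from -0.47 to 0.82 for Vcam1 and from -0.44 to 0.32 for Itgb2, and for the Vcam1 and Ptprc probes they reached past 1.5-fold in at least 1 direction. Within slide 1, which holds the 3 controls and SM + MSTF replicate 3 alone, the values were -0.03 for Icam1, 0.82 for Vcam1, 0.14 for Itgb2, 0.34 for Itgal and 0.31 to 0.43 for the Ptprc probes, none of them called. The slides of the other comparisons hold 1 group each, so no value within a slide could be had for them.

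Much of what these genes showed was spread between rats of 1 group. The SD over the 4 SM arrays was 0.23 to 0.51 for the 7 probes, with a median of 0.46, while the median over all probes tested was 0.18. All 7 probes were above that median in SM. They include Itgal, which was well above background on only 2 of the 4 SM arrays. In control the members' median SD was 0.22 against 0.15 over all probes, and in SM + MSTF it was 0.22 against 0.19. The widest SM ranges were 1.19 for Icam1 and 1.09 for Itgal and for the Ptprc probe A_44_P135213.

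Because whole liver was measured, the number of leukocytes and the RNA per leukocyte cannot be told apart in these signals. Of 10 pan-leukocyte markers 8 were tested and none was called in any comparison. Their summed normalized signal, weighted to the brightest markers, was 24978 to 29395 in control, 18083 to 35375 in SM and 30570 to 35364 in SM + MSTF. Between SM and control 2 of them were higher and 6 lower, with a median of -0.16 beside 0.03 over all probes. The 2 higher ones, named after their values were seen, had the largest values of the list. They were Cd52 at 0.95 (limma adjusted p = 0.385) and Cd37 at 0.64 (adjusted p = 0.478). SM replicate 4 had the highest sum of the SM arrays for the pan-leukocyte markers and also for those of macrophages, neutrophils and natural killer cells. For T cell and endothelial markers SM replicate 1 had the highest sum. By mean log2 signal, SM replicate 4 was the highest SM array for T cell (6.78) and endothelial markers (8.06) too. Of 12 macrophage and Kupffer cell markers 10 were tested, with sums of 110650 to 141583 in control, 72398 to 136504 in SM and 117156 to 147784 in SM + MSTF. All 10 had a negative fitted value against control in SM (median -0.12) and a positive one against SM in SM + MSTF (median 0.39), and none was called. Of all probes 44.1% were negative and 46.4% positive in these comparisons. Both comparisons use the same SM arrays, so the 2 counts are not separate lines of evidence. The centred mean of these markers on SM replicates 1 to 4 was -0.25, -0.59, -0.17 and 0.25.

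Natural killer cells carry high levels of LFA-1, and 6 of their 8 markers were tested. Their summed signal was 1194 to 1492 in control, 658 to 1730 in SM and 930 to 2140 in SM + MSTF, with a median fitted value of -0.66 between SM and control and of 0.78 between SM + MSTF and SM. Klrd1, the CD94 receptor chain, was the 1 marker of that list called, and it is named after its values were seen. The Klrd1 probe was well above background on 8 arrays, not on all. Its mean log2 signal was 5.45 in control, 4.23 in SM and 5.38 in SM + MSTF. Such a probe can enter the test through a group where it is high. Its differences, -1.22 between SM and control and 1.15 between SM + MSTF and SM, are thus a description only. Ncr1, a defining receptor of these cells, never stood well above background.

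The T cell markers (5 of 10 tested) summed to 720 to 798 in control, 458 to 898 in SM and 555 to 926 in SM + MSTF. Cd5 and Cd28 of that list stood well above background on 0 arrays. The neutrophil markers (3 of 10 tested) summed to 511 to 985 in control, 478 to 6375 in SM and 846 to 23572 in SM + MSTF, while the granule and receptor genes Elane, Csf3r, Mmp8 and Camp stood well above background on 0 arrays. The highest sums in SM and SM + MSTF came mostly from 1 gene, Lcn2. Its mean log2 signal in SM + MSTF was 10.61 ± 3.37 (SD, n = 3), against 8.03 ± 0.81 for S100a8 and 8.26 ± 0.69 for S100a9. Between SM + MSTF and SM the fitted values were 1.22 for Lcn2, 0.28 for S100a8 and -0.25 for S100a9, none called. Of 8 B cell markers only Cd79b, a chain of the B cell receptor complex, was tested, and it is named here after its values were seen. Its signal was 65 to 101 in control, 12 to 33 in SM and 9 to 74 in SM + MSTF. It was well above background on 7 of 10 arrays and entered the test only through control, where it was highest. The difference of -2.18 on the log2 scale between SM and control is thus given as a description only. The endothelial markers (8 of 11 tested), from the cells that make Vcam1 and much of Icam1, had sums of 21474 to 21672 in control, 20817 to 22669 in SM and 17326 to 22684 in SM + MSTF. The part of these cell types in the values of the adhesion genes was not tested.

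**Figure D3:**
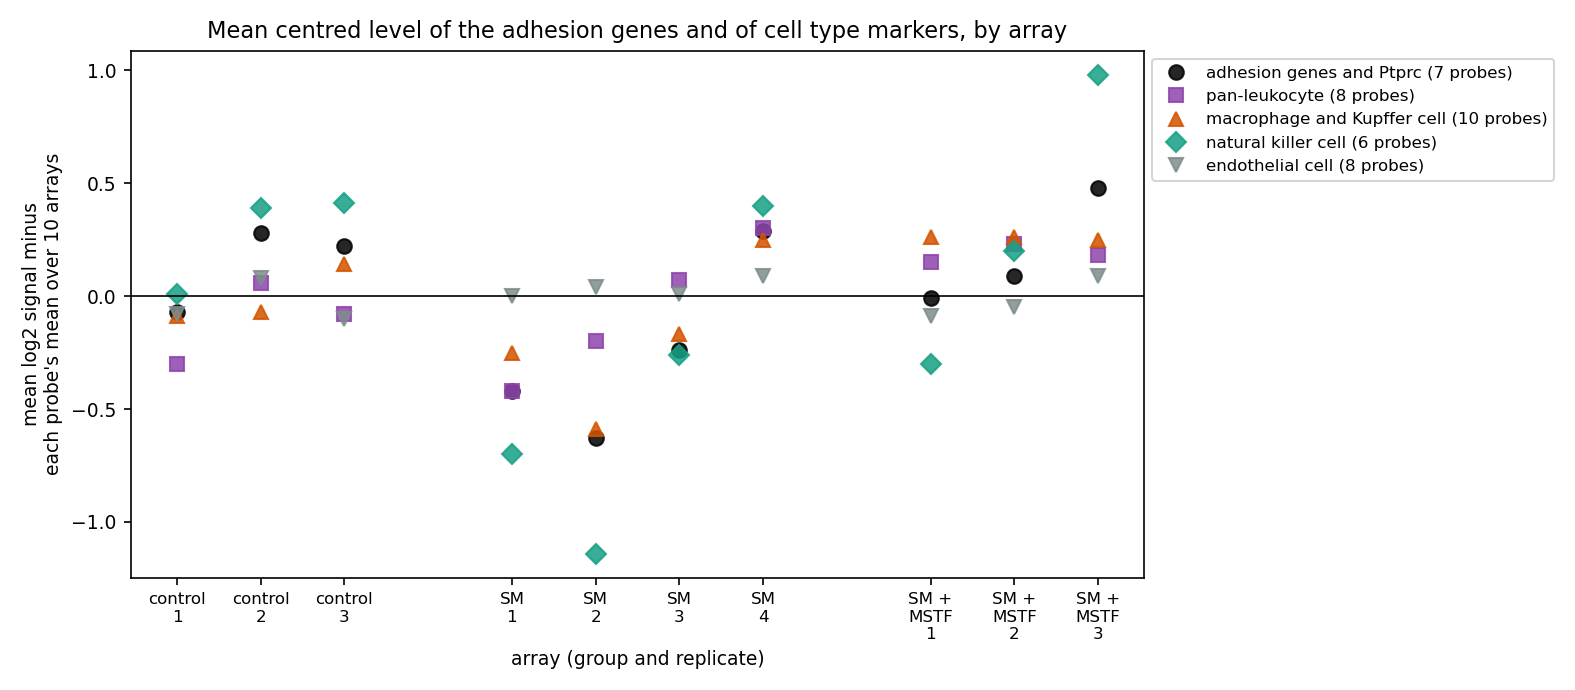
Mean log2 signal on each array, after each probe was centred on its mean over the 10 arrays (vertical axis), for the 7 tested probes of the adhesion genes and Ptprc and for the tested markers of 4 cell types. In SM the adhesion genes, with the dim Itgal included, lie at -0.42, -0.63, -0.24 and 0.29. The pan-leukocyte, macrophage and natural killer cell markers are also highest on SM replicate 4 within SM. So are the endothelial markers, which stay within 0.10 of 0 on all arrays.

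Genes that work with these molecules were followed in 5 lists with 1 probe per gene, and no gene of any list was called in any comparison. The first holds the selectin ligands and the enzymes that glycosylate them, of which 8 of 15 were tested. In SM versus control 5 were higher and 3 lower, with a median of 0.08 beside 0.03 over all probes. Podxl, a sialomucin that can carry selectin ligands, had the largest value at 0.38 (SE 0.19, adjusted p = 0.376), and B4galt1, a galactosyltransferase, followed at 0.19 (adjusted p = 0.671).

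The second list holds the other leukocyte integrins and the other immunoglobulin-type and junctional ligands, of which 16 of 24 were tested. Between SM and control 6 were higher and 10 lower, with a median of -0.10. Between SM + MSTF and SM 11 were higher and 5 lower, with a median of 0.11. Itgam, which encodes CD11b and pairs with Itgb2 to form Mac-1, had a log2 signal of 6.17, 5.09 and 6.46 in control, 4.28, 5.23, 4.65 and 5.27 in SM, and 7.27, 6.11 and 5.29 in SM + MSTF. The SM arrays overlapped with control replicate 2, and every SM + MSTF array was above every SM array, though SM + MSTF replicate 3 was so only by its second decimal. SM + MSTF and SM did not overlap for 14.7% of all probes. The difference from control in SM was -1.05 (SE 0.48, adjusted p = 0.316) and SM + MSTF minus SM was 1.37 (SE 0.48, adjusted p = 0.224). Cd47, the signal that keeps macrophages from engulfing a cell, stood at -0.54 (SE 0.25, adjusted p = 0.324) in SM versus control.

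Integrin activation, the inside-out signalling from Rap1 through talin and kindlin-3, was represented by 13 of 18 genes. Between SM and control 4 were higher and 9 lower, with a median of -0.07. Between SM + MSTF and SM 9 were higher and 4 lower, with a median of 0.03. The largest values in SM versus control belonged to Cytip, a cytohesin-binding protein of leukocytes, at -0.66 (SE 0.30, adjusted p = 0.312), and to Skap2, a Src kinase adaptor, at -0.25 (adjusted p = 0.477). Of the CD45 partners and substrates 9 of 12 were tested, 4 higher and 5 lower between SM and control with a median of -0.09, and 7 higher and 2 lower between SM + MSTF and SM with a median of 0.24. The kinase Syk stood at -0.22 (adjusted p = 0.569) in SM versus control.

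The last list holds cytokines, receptors and transcription factors that induce endothelial adhesion molecules, of which 10 of 17 were tested. Tnf and Ifng, the classic inducers, stood well above background on 0 arrays and Il4 on 1. Between SM and control 3 were higher and 7 lower, with a median of -0.14. Between SM + MSTF and SM 9 were higher and 1 lower, with a median of 0.16. Irf1, an interferon-regulated factor that acts on the Vcam1 promoter, gave mean log2 signals, in the order control, SM, SM + MSTF, of 7.52 ± 0.11 (SD, n = 3), 7.16 ± 0.18 (SD, n = 4) and 7.47 ± 0.28 (SD, n = 3). Each SM array lay below each control array, the nearest pair being 7.39 and 7.40, and these groups did not overlap for 18.0% of all probes. The difference was -0.36 (SE 0.15, unadjusted p = 0.0359 and adjusted p = 0.262 by limma). Il1b, an early cytokine of macrophages, stood at -0.33 (adjusted p = 0.599) between SM and control and at 0.63 (SE 0.27, adjusted p = 0.303) between SM + MSTF and SM, and SM replicate 4 was again the highest SM array, at 10.04 against 8.70 to 9.35.

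**Figure D4:**
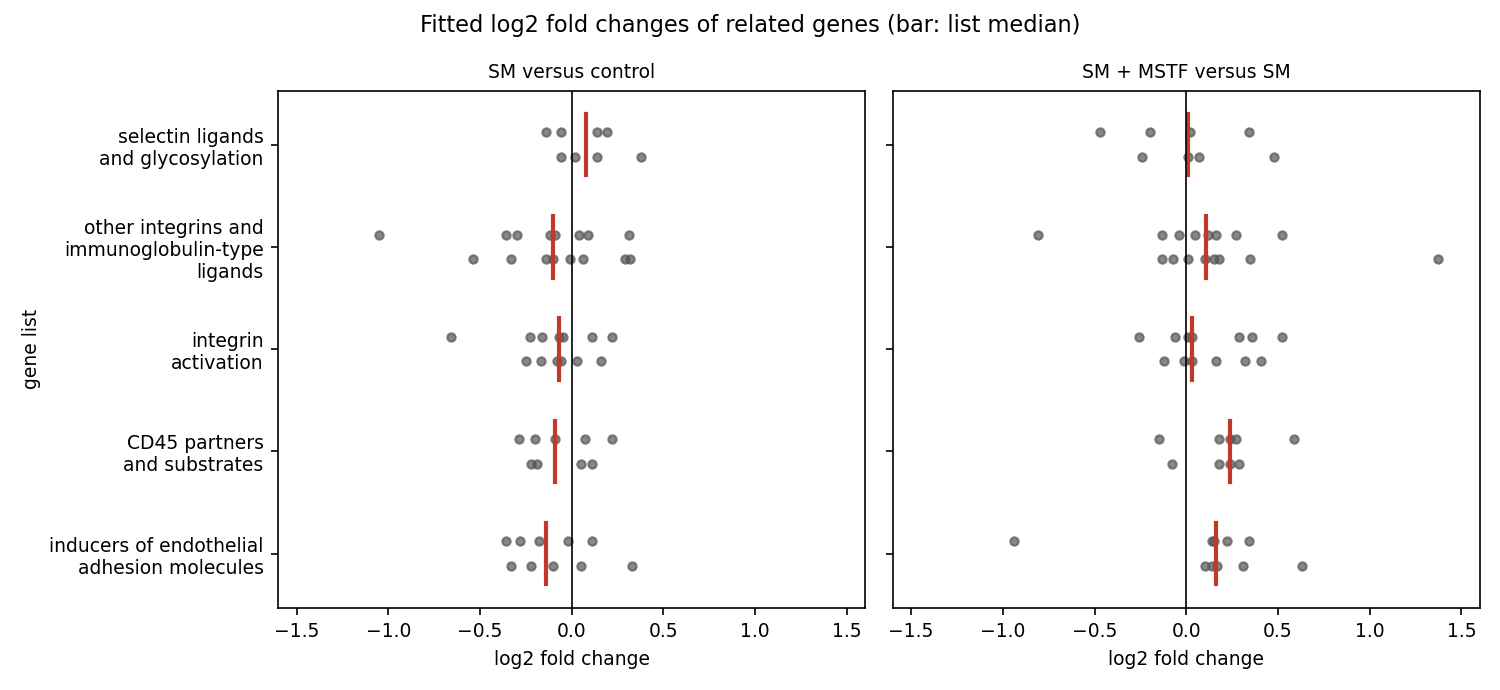
Fitted log2 fold changes (horizontal axis) of the tested genes of the 5 lists, 1 point per gene and a red bar at each list's median, with SM against control on the left and SM + MSTF against SM on the right. No gene shown was called. Itgam lies farthest from 0 in both panels, at -1.05 and 1.37.

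The genes whose values followed each member most closely were sought among 8443 named genes well above background on all 10 arrays, by the root mean square difference of log2 values centred on their means over those arrays. This is a description over 10 arrays, and the nearest genes were picked from many. Vcam1 was nearest to Cd38, an NAD-consuming surface enzyme of leukocytes, at 0.09, followed by Rnf114, a ubiquitin ligase, at 0.10 and Kcnk13, a potassium channel, at 0.13, where the SD of Vcam1 over the 10 arrays was 0.42. Icam1 (SD 0.31) was nearest to Twf2 at 0.14, Syk at 0.14 and Tm4sf1 at 0.15. Itgb2 (SD 0.26) was nearest to Arhgap17 at 0.08, Zcchc2 at 0.09 and Mtrf1l at 0.10.

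The Ptprc probe A_44_P135213 was nearest to Fermt3, the gene of kindlin-3, an integrin activator of blood cells, at 0.11, then to Tsc22d4 and Irf5, both at 0.12. The probe A_44_P236144 was nearest to Tmsb10 at 0.13 and to P2ry6 and Tmem123, both at 0.15. The probe A_44_P414258 was nearest to the cytokine gene Il18 at 0.11, Rnf114 at 0.12 and Rnf31 at 0.13. No gene was among the 3 nearest of more than 1 Ptprc probe, and Rnf114 was near both to Vcam1 and to 1 Ptprc probe. Itgal was left out of this search because it was not well above background on all arrays.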

How the data were processed

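Liver RNA of 10 rats was measured. The authors labelled it with Cy3 and read each spot with Agilent Feature Extraction 10.7 (per the labels); the scanner files deposited hold a background-subtracted intensity per spot. The authors also deposited log2 values, quantile normalized in GeneSpring per the study's methods, with a median of 5.176 in each column. These served as an alternative.

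Here control spots and spots marked not uniform (0 to 4 per array) were removed, and the intensity was quantile normalized and turned into log2, with the mean taken where a probe has several spots. The 3 groups were compared in 1 limma 3.58.1 fit (lmFit and eBayes, R 4.3.3) over 22991 probes. The authors' t-test was an alternative. Of 41012 probes 17512 were named, through accessions in a RefSeq table of GRCr8. Probe design is older, and no probe coordinates are given. Array number limits the precision.

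The members and lists were chosen with earlier results of these data known. Named genes are the members, in each list the genes called or with the 2 largest values in SM versus control among probes well above background on all 10 arrays, and the 3 genes nearest to each member probe, apart from items not reported here. Replicates are separate rats. Replicate numbers did not pair arrays (correlations of deviations -0.10 to 0.17). The procedure was tested on simulated data.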

Additional observations from a re-analysis of the deposited data

Results flagged for a closer look

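Itgal in SM replicate 4 was far from the other SM arrays. The gap to the nearest of the others was 0.837 of the group's range, above Dixon's critical value for 4 samples. The array read 5.16, against 4.07 to 4.25 on the other 3, and the probe was well above background on it and on SM replicate 2 only. Chance flags about 1 in 20 groups, and 7 groups were tested.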

How the results depend on the processing

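The count of member probes called was 0 in each comparison under each alternative run, apart from SM + MSTF versus SM by the methods' t-test without adjustment, where it was 1 (Itgal, which passed the filter only through SM + MSTF). Of the fitted values of single probes under the alternatives, 144 of 145 kept their sign in SM versus control, 137 of 160 in SM + MSTF versus control and 145 of 146 in SM + MSTF versus SM. With slide as a fixed block and within slide 1, SM + MSTF versus control turned to 0.14 for Itgb2, 0.33 for Ptprc A_44_P236144 and 0.43 for A_44_P414258. With slide as a random block the Ptprc values turned to 0.01 and 0.02, and with normexp that of A_44_P236144 turned to 0.01. Leaving out 1 array at a time gave, in SM + MSTF versus control, -0.08 to 0.03 for Icam1, -0.15 to 0.36 for Vcam1, -0.17 to 0.05 for Itgb2, -0.09 to 0.39 for Itgal, and -0.05 to 0.17, -0.22 to 0.13 and -0.28 to 0.11 for Ptprc A_44_P135213, A_44_P236144 and A_44_P414258. Icam1 ran from -0.35 to 0.05 in SM versus control and from -0.07 to 0.32 in SM + MSTF versus SM. Values of the dim probes Itgal and Ptprc A_44_P236144 were -0.21 and -0.22 between SM and control with normexp, whose offset shrinks differences of dim probes by construction. The cause of the other shifts was not tested. Replicate numbers did not pair the arrays, and with the replicate block 0 members were called in each comparison while the count over all probes in SM versus control went from 553 to 53. Over all alternatives that count ran from 53 to 1131, that of SM + MSTF versus control from 0 to 291 (250 without SM + MSTF replicate 3) and that of SM + MSTF versus SM from 13 to 863. Itgal was not tested on probes well above background on all 10 arrays, nor in SM versus control with those groups alone. Dim signal limits Sele, Selp and Itgal.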
